A study of Mus musculus with 70 samples.

Results

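Potassium channel genes were taken as every gene of the RNA-seq table whose symbol starts with Kcn, apart from Kcnj13 and Kcne2, which the choroid plexus expresses strongly. This gave 96 of 24346 genes. RNA came from the bilateral dorsal hippocampus of individually housed 12-week-old C57BL/6J male mice, with 10 libraries in each of 7 groups. Home cage and sedentary (0-0-0) mice had no running, and the other 5 groups ran voluntarily on wheels. Their names give the days of initial exercise, of sedentary delay and of reactivating exercise: 14-0-0 and 0-0-2 had no delay, 14-7-0 and 14-14-0 had a delay alone, and 14-7-2 ran again after it. Wheels were removed the night before training. All mice except home cage had 3 min of object location memory (OLM) acquisition, a subthreshold training in which the place of objects is learned, 1 h before tissue collection. Each group held 5 libraries from each of 2 harvest cohorts. No group carries a transgene, and the tissue was dissected as a whole, so a library pools neurons, glia and vessels.

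Potassium channels let potassium leave a cell, which sets the resting potential, ends the action potential and spaces spikes. Voltage-gated channels open on depolarization, inward rectifiers pass current best near the resting potential and buffer potassium in glia, two-pore channels carry background leak, and calcium-activated channels open with calcium entry. The sodium-activated channels Kcnt1 and Kcnt2 belong by sequence to this last group and were counted in it. In the hippocampus, granule cells and pyramidal cells carry distinct sets of these channels in their dendrites and axons.

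Of the 96 genes, 51 belonged to the voltage-gated family (40 pore-forming subunits and 11 auxiliary subunits), 14 to the inward rectifiers, 14 to the two-pore channels and 12 to the calcium-activated family (8 pore-forming and 4 auxiliary). The other 5 were in none of these: the antisense and noncoding RNAs Kcnd3os, Kcnmb4os1, Kcnmb4os2 and Kcnq1ot1, and the channel regulator Kcnrg. A gene was tested where its mean reached 1 FPKM over the 70 libraries. FPKM scale the mapped fragments of a gene by its transcript length and by the size of the library. The filter passed 67 of the 96, of which 39 were voltage-gated, 10 inward rectifiers, 8 two-pore, 8 calcium-activated and 2 antisense RNAs. The filter used the mean over all libraries and not any single group. The 29 that did not pass had a mean of 0.962 FPKM (Kcnk6) or less, and Kcnk16 was listed at 0 in all 70 libraries.

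Some libraries stood apart, and results that rest on them are given with and without them. In sedentary replicate 6, the markers of granule cells, pyramidal cells and excitatory neurons were low and those of striatum and oligodendrocytes high, as detailed below. The 14-7-0 replicate 4 had a relative depth of 0.0365, against 0.347 to 1.49 in the other libraries, as read from the smallest steps of low genes and with 1 set to sedentary replicate 0. In it 10279 genes were listed at 0, against 6243 to 7199 elsewhere. Summed FPKM of the 12 choroid plexus markers ran from 36.0 to 22148 over the libraries. The group medians of that sum were 2339 in 14-0-0 and 2165 in 14-14-0, against 98.4 to 142 in the other groups.

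Abundant potassium channel transcripts of the dorsal hippocampus encoded auxiliary subunits of voltage-gated channels. Kcnab2, a cytoplasmic beta subunit of Kv1 channels, had the highest mean at 251 FPKM over the 70 libraries. Kcnip2, which binds Kv4 channels, had 107 FPKM, and the beta subunit Kcnab1 had 77.6 FPKM. Since FPKM are scaled by length, these levels can be set beside each other across genes. All of these belong to the voltage-gated family.

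Among pore-forming voltage-gated subunits, the A-type channel Kcnd2 had 39.1 FPKM, the fast Kv3 channel Kcnc1 had 33.0 FPKM, and the axonal channel Kcna1 had 34.7 FPKM. Among the genes that passed the filter, silent subunits, which form no channel alone, ranged from Kcnf1 at 13.5 FPKM and Kcns2 at 13.0 FPKM down to Kcng4 at 2.79 FPKM. In the inward rectifier family, Kcnj10, the main glial channel, and Kcnj3, a subunit of G-protein-gated channels, had nearly equal levels of 46.8 and 46.3 FPKM. They were followed by Kcnj4 at 29.9 FPKM. Kcnk1 at 56.9 FPKM led the two-pore channels, with the mechanosensitive Kcnk2 at 18.5 FPKM and the acid-sensitive Kcnk9 at 7.92 FPKM after it. The calcium-activated family was led by Kcnmb4, the neuronal beta subunit of the BK channel, at 26.1 FPKM. The BK pore subunit Kcnma1 had 21.4 FPKM and the SK channel Kcnn2 had 20.2 FPKM.

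**Figure D1:**
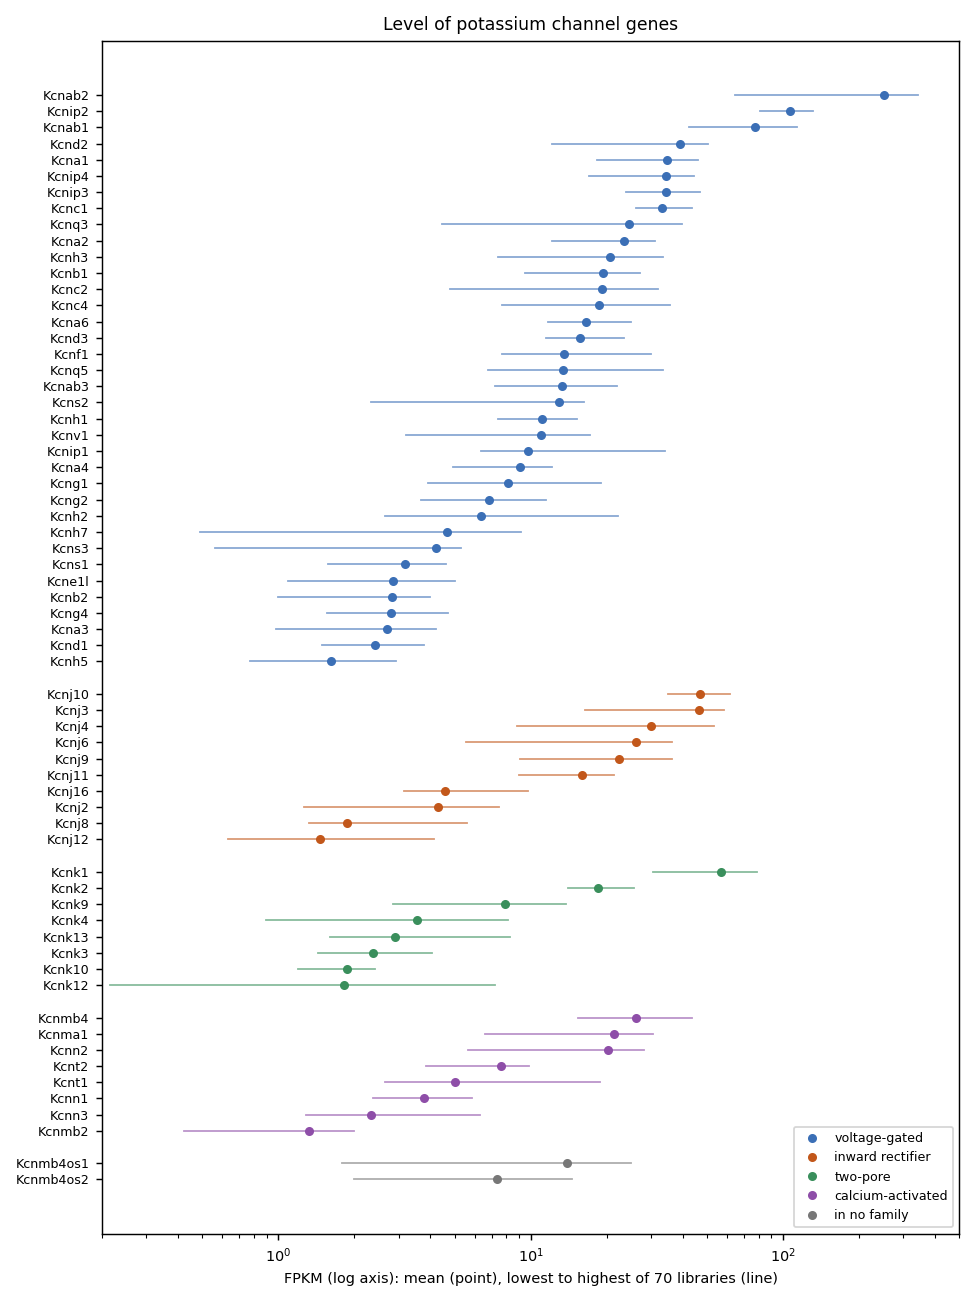
Level of 64 of the 67 potassium channel genes that were tested, by family; each point is the mean over 70 libraries on a log axis of FPKM, and each line runs from the lowest to the highest library. Among those drawn, Kcnab2 at 251 FPKM, Kcnip2 at 107 FPKM and Kcnab1 at 77.6 FPKM have the highest means.

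Leaving out sedentary replicate 6, the coefficient of variation over libraries had a median of 18.1% over the 67 genes, against 14.5% over the 12994 genes tested. It was lowest for Kcnc1 at 10.4%, and it was 11.2% for Kcnk2. The highest was that of the silent two-pore subunit Kcnk12 at 71.3%, from 0.214 to 7.19 FPKM. The value of 7.19 FPKM belongs to 14-7-0 replicate 4, which was shallow, and the other libraries reached 6.01. Its coefficient without that library is not given. The summed level of the 51 voltage-gated genes had a mean of 1032 FPKM ± 85.5 (SD, n = 10) in home cage, 1030 ± 83.5 in 14-0-0 and 1092 ± 83.5 in 14-7-0. The sum was 1072 ± 66.1 FPKM in 14-7-2, 1015 ± 116 in 14-14-0 and 1026 ± 92.6 in 0-0-2. The sedentary sum was 1035 FPKM ± 157 (SD, n = 10) with replicate 6, which was at 613 FPKM, and 1082 ± 55.3 (SD, n = 9) without it. The groups overlapped in this sum.

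Sedentary replicate 6 held the widest departures of any library. Of the 67 genes, 28 were lower in it than in all 69 other libraries (41.8%; 17.8% of all genes tested) and 8 were higher (11.9%; 13.3% of all genes tested). No other library was outside the range of the rest for more than 13 of the 67, and the median of those libraries was 0. By family, 19 of 39 voltage-gated genes, 3 of 10 inward rectifiers, 2 of 8 two-pore channels and 4 of 8 calcium-activated genes were below all others. These counts describe 1 library and carry no test.

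The lowest values were those of ERG, silent, M-current, G-protein-gated and Kv3 subunits. Kcnh7, an ERG channel, was at 0.491 FPKM in that library, against 4.45 ± 1.08 (SD, n = 9) in the other sedentary libraries. The silent subunit Kcns3 was at 0.561 FPKM against 4.59 ± 0.363. Kcnq3, a subunit of the M current that brakes repetitive firing, was at 4.46 FPKM against 25.5 ± 5.19, which is 5.48-fold lower on the log2(FPKM + 0.1) scale. Kcns2 (2.32 FPKM against 12.9 ± 1.77), the G-protein-gated rectifier Kcnj6 (5.56 against 27.2 ± 5.18) and the Kv3 subunit Kcnc2 (4.80 against 20.6 ± 3.54) completed the lowest. Kcnab2 had 64.8 FPKM against 270 ± 36.8, and its lowest value in the other 69 libraries was 132 FPKM.

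Among genes with high values there, Kcnh2, another ERG channel, had 22.1 FPKM against 5.78 ± 1.72 in the other sedentary libraries. Kcnip1, a Kv4 partner, had 34.0 FPKM against 9.37 ± 0.981. The sodium-activated Kcnt1 had 18.8 FPKM against 5.30 ± 1.00, and the SK channel Kcnn3 had 6.28 against 2.22 ± 0.442. The two-pore channel Kcnk13 was at 8.31 FPKM against 3.00 ± 0.742, and the rectifiers Kcnj12 and Kcnj16 were at 4.14 and 9.80 FPKM against 1.51 ± 0.415 and 4.67 ± 0.651. Members of one subfamily therefore lay on opposite sides in this library, as Kcnh7 and Kcnh2, Kcnip4 (17.0 FPKM against 34.4 ± 3.41) and Kcnip1, and Kcnn2 (5.64 FPKM against 20.7 ± 2.35) and Kcnn3 did.

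**Figure D2:**
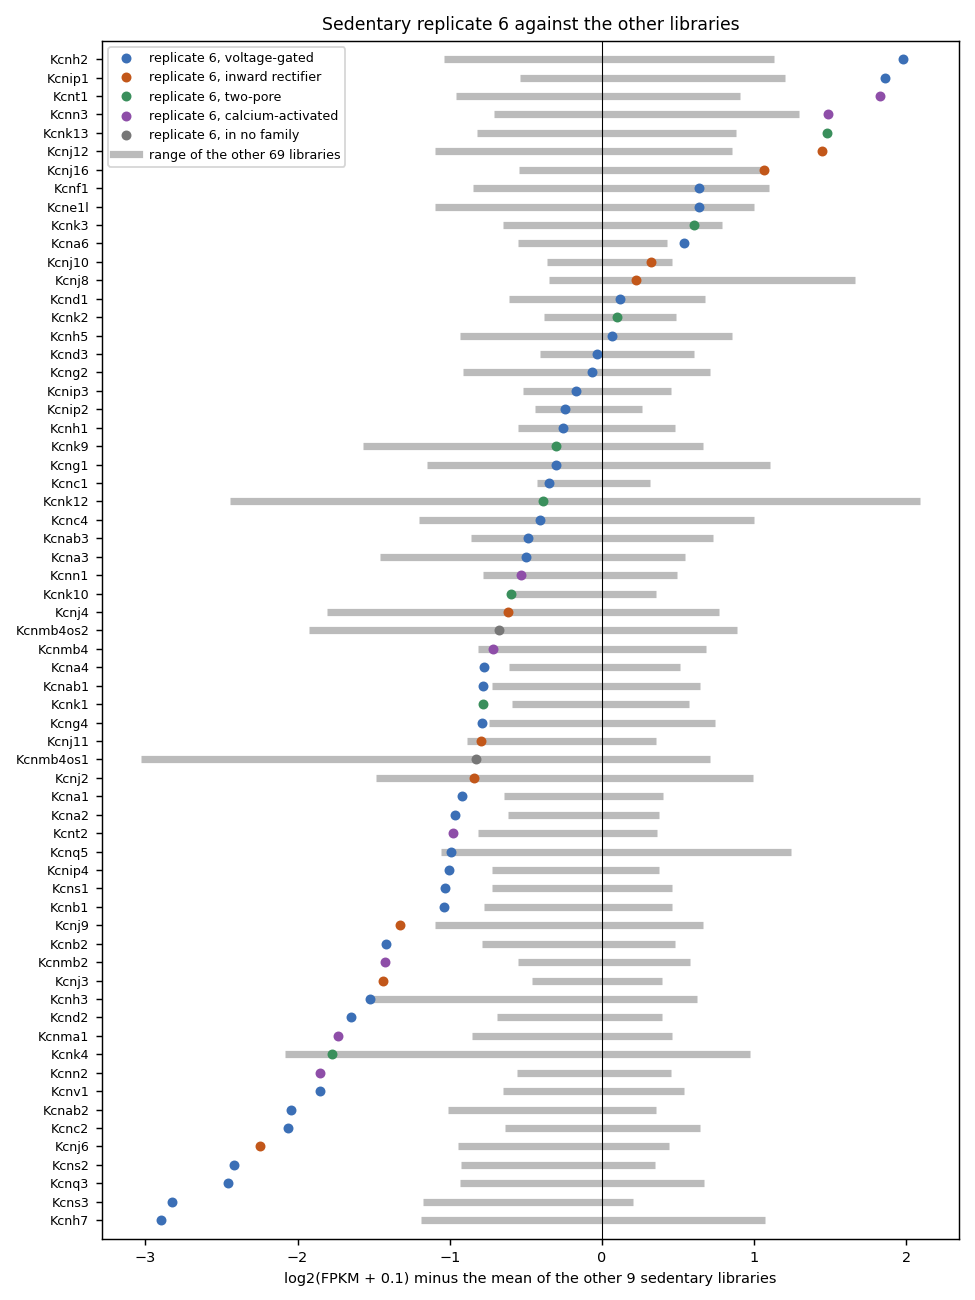
Sedentary replicate 6 (points, by family) against the other libraries for 64 of the 67 genes; the axis is log2(FPKM + 0.1) minus the mean of the other 9 sedentary libraries, and grey bars span the other 69 libraries. Points lie to the left of the bar for 26 genes and to the right for 8, from Kcnh7 at -2.90 to Kcnh2 at 1.98.

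Markers of cell types moved with these values in the same library. The 6 dentate granule cell markers summed to 18.2 FPKM there and to 58.8 to 224 FPKM in the other libraries, and 6 of 6 were below all others. The granule cell marker Prox1 was at 2.91 FPKM against 22.1 ± 7.28. Markers of CA1 and CA3 pyramidal cells summed to 152 FPKM against 344 to 692, with 6 of 8 below all others, and those of excitatory neurons of hippocampus and cortex to 415 FPKM against 1545 to 2555, with 6 of 7 below. Slc17a7, the vesicular glutamate transporter of these neurons, was at 17.1 FPKM against 622 ± 96.9. The 7 striatum markers summed to 441 FPKM against 48.0 to 154, with 7 of 7 above all others, and the 8 oligodendrocyte markers to 7193 FPKM against 1375 to 5106, with 8 of 8 above. Markers of thalamus and other subcortical neurons summed to 330 FPKM against 27.9 to 218, but only 3 of the 8 (Prkcd, Zic1 and Calb2) were above all others. Lef1, Rora and Plekhg1 of that list, at 1.22, 2.88 and 4.26 FPKM, were below the mean of the other sedentary libraries. Of the 7 inhibitory neuron markers, Gad1, Gad2 and Slc32a1 were above all others, and Pvalb and Vip were below. Their sum of 912 FPKM lay within the 383 to 916 of the other libraries. Markers of granule cells, pyramidal cells and excitatory neurons were thus low in this library, while those of inhibitory neurons were mixed. In bulk tissue, fewer cells of a type and less RNA per cell cannot be told apart, and the part of the dissected region in these channel levels was not tested.

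Other libraries differed from the rest at fewer of these genes. In 14-14-0 replicate 3 and 0-0-2 replicate 4, Kcnip1 (16.1 and 21.6 FPKM) and Kcnn3 (4.42 and 5.49 FPKM) were higher than in the rest of their groups. The same libraries had 218 and 183 FPKM summed over the 8 markers of thalamus and other subcortical neurons, for which the libraries had a median of 43.5. Their striatum sums were 129 and 154 FPKM (median of the others 68.9), and their granule cell sums 61.2 and 96.2 FPKM (median of the others 156). The choroid plexus sum was 12103 FPKM in 14-14-0 replicate 3 and 126 FPKM in 0-0-2 replicate 4. In 0-0-2 replicate 8, 10 of the 67 genes were above all other libraries, among them the silent subunits Kcnf1 at 29.9 FPKM and Kcng1 at 19.0 FPKM, and Kcnj10, Kcnj2 and Kcnk2 were below all others. Its astrocyte marker sum of 721 FPKM was the lowest of all libraries. Its sum of endothelium and pericyte markers was the highest, at 154.5 FPKM against at most 153.8 in the others. Sums of granule cells (86.7 FPKM, median of the others 156), pyramidal cells (348, 455) and excitatory neurons (1556, 2145) were below the median of the others. Those of inhibitory neurons (830 FPKM, 523) and meninges and fibroblasts (144, 33.5) were above it, all within the range of the others. In 14-7-2 replicate 9, 8 genes were below all others, among them Kcnj4 at 8.79 FPKM, Kcnh2 at 2.65 FPKM and Kcnmb4os1 at 1.78 FPKM. Above all others in it were Kcnj6 at 36.4 FPKM and Kcnt2 at 9.88 FPKM. In this library the sums of microglia (117 FPKM), inhibitory neurons (383 FPKM) and endothelium and pericytes (102 FPKM) were the lowest of all. The part of these cells in the channel levels was not tested. For 0-0-2 replicate 8 and 14-7-2 replicate 9, the share of all genes tested outside the range of the rest is not given. Their counts describe the libraries and are not read as a result about the channels.

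Each exercise group and home cage were compared with sedentary to ask whether the schedule moved these channels at training. Differences are of the mean log2(FPKM + 0.1), tested with limma's moderated test, and called at an unadjusted p under 0.05 as the study did. Of the 67 genes, 14 were called against sedentary in at least 1 of the 6 comparisons (20.9%; 17% of all genes tested) and 21 in at least 1 of the 8 comparisons between groups (31.3%; 22.1% of all genes tested), while 46 were called in none. None had an adjusted p under 0.05 in any of the 8, and the groups overlapped for each of the 67 in every comparison. The shares of all genes tested with such an adjusted p, or with overlapping groups, are not given. These counts are thus not read as a result about the channels. The 6 comparisons share the sedentary libraries, so their results are not independent.

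In 14-0-0, mice that ran until the night before training, 8 of the 67 genes were called (11.9%), against 9.15% of all genes tested. Higher were the two-pore channel Kcnk1, the inward rectifier Kcnj2, the A-type Kv1 channel Kcna4 and the beta subunit Kcnab1. Lower were the Kv1 channel Kcna6, the sodium-activated Kcnt1, the two-pore channel Kcnk13 and the Kv4 partner Kcnip2. The smallest adjusted p was 0.279 for Kcnk1. Without sedentary replicate 6 these 8 were again called, as was Kcnc1, and the count was 10, against 10.3% of all genes tested. After adjusting for the choroid plexus score, the mean log2 level of choroid plexus markers in a library, the 4 higher genes were again called and the 4 lower were not; with Kcnj3, Kcnab3, Kcng4 and Kcnip4, called higher, the count was 8, against 5.1% of all genes tested.

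The promoters of the 3 pore-forming genes called higher in 14-0-0 are shown because each comes from a different family and they were higher together. Sequences are from RefSeq (GRCm38.p6, the build of the mm10 genome that the submitters' processing notes name), where 70 of the 96 genes had an entry. Each runs 5′ to 3′ from 250 bases before to 50 after a start site, and the 3 lie on the plus strand at chr8:125994852-125995151 for Kcnk1, chr11:111065914-111066213 for Kcnj2 and chr2:107290339-107290638 for Kcna4. For Kcnj2 and Kcna4 that site is the first base of the RefSeq gene, but for Kcnk1 it lies 1447 bases after it, so the Kcnk1 window is wholly inside the gene. Capitals mark matches on either strand to GCGGGGGCG or GCGTGGGCG (the EGR motif), CACGTG (an E-box) or TGACGTCA (the CRE).
Kcnk1: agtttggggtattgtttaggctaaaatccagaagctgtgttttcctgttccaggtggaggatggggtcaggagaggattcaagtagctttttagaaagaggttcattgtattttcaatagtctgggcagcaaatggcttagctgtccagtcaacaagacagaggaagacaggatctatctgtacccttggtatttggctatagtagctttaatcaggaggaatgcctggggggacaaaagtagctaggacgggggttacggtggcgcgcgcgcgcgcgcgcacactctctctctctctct
Kcnj2: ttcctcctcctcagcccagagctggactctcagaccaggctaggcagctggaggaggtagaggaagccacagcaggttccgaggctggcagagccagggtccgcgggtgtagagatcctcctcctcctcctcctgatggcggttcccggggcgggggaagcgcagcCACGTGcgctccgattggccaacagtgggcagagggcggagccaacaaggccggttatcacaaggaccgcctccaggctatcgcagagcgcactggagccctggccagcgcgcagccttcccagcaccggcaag
Kcna4: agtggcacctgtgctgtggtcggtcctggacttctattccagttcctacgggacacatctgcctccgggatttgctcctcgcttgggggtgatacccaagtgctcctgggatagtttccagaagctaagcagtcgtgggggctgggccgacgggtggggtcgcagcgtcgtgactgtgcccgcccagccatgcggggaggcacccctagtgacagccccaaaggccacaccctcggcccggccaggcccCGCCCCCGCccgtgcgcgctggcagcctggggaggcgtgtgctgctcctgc
The windows shared none of these motifs. The EGR match lies in Kcna4 and the E-box in Kcnj2, and the searched letters were not in the Kcnk1 window. Of the 32851 promoters of that length, 3.47% held an EGR match, 7.15% an E-box and 1.79% a CRE. The motifs do not overlap each other in these windows.

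Kcnk1, a background leak channel on chromosome 8, ran from 53.3 to 78.6 FPKM in 14-0-0 (median 63.8) and from 30.6 to 61.9 in sedentary (median 53.2). All 10 libraries of 14-0-0 were above the sedentary median, although the groups overlapped. The difference was 0.35 ± 0.10 (SE) on the log2 scale, 1.28-fold (limma p = 0.00162, adjusted p = 0.279). It was 0.28 without sedentary replicate 6 (limma p = 0.000486). Within harvest cohort 1 it was 0.23 and within cohort 2 it was 0.48, so both cohorts showed the direction. After adjusting for the choroid plexus score it was 0.34 (limma p = 0.0131). Here and below, differences from sedentary within cohort 2 include sedentary replicate 6.

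Kcnj2, the classical strong inward rectifier, ran from 4.10 to 7.51 FPKM in 14-0-0 (median 4.69) and from 2.03 to 5.62 in sedentary (median 3.63). Again all 10 libraries lay above the sedentary median. The difference was 0.51 ± 0.16 on the log2 scale (limma p = 0.00513, adjusted p = 0.323). It was 0.57 in cohort 1 and 0.45 in cohort 2, and 0.43 without sedentary replicate 6.

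Kcna4 had 9.97 FPKM ± 1.27 (SD, n = 10) in 14-0-0 and 8.22 ± 1.73 in sedentary, and Kcnab1 had 84.1 ± 12.5 and 70.3 ± 13.2. In each, 8 of 10 libraries of 14-0-0 were above the sedentary median. The difference of Kcna4 was 0.30 on the log2 scale (limma p = 0.0214), 0.43 in cohort 1 and 0.17 in cohort 2. That of Kcnab1 was 0.27 (limma p = 0.0259), 0.20 in cohort 1 and 0.34 in cohort 2, and 0.44 after adjusting for the choroid plexus score (limma p = 0.00305). The channel and the beta subunit of its family were thus both higher, while Kcna6 of the same Kv1 family was lower.

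Kcnt1, which passes potassium when sodium enters, ran from 2.84 to 5.27 FPKM in 14-0-0 (median 4.18) and from 4.33 to 18.8 in sedentary (median 4.91). The value of 18.8 belongs to sedentary replicate 6, and the other 9 ended at 7.38. The difference was -0.53 on the log2 scale (limma p = 0.0182) and -0.35 without that library (limma p = 0.00983). Kcnk13, a two-pore channel that microglia also express, ran from 1.78 to 3.04 FPKM against 1.88 to 8.31 in sedentary, and its difference of -0.44 was -0.29 without that library (limma p = 0.0359). For this gene 9 of 10 libraries of 14-0-0 were below the sedentary median. The summed level of the 8 microglia markers was 145 to 233 FPKM in 14-0-0 and 148 to 265 in sedentary, and its part in the result was not tested. Neither gene was called after adjusting for the choroid plexus score, with -0.47 for Kcnt1 (limma p = 0.0926) and -0.44 for Kcnk13 (limma p = 0.0814).

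Kcna6 had 15.0 FPKM ± 2.04 (SD, n = 10) in 14-0-0 and 18.0 ± 3.22 in sedentary, a log2 difference of -0.26 (limma p = 0.0148). Kcnip2 had 96.6 FPKM ± 9.95 and 109 ± 13.7, with 9 of 10 libraries below the sedentary median. Its log2 difference of -0.17 (limma p = 0.0356) was -0.32 in cohort 1 and -0.02 in cohort 2. Neither Kcna6 (limma p = 0.0843) nor Kcnip2 (limma p = 0.0595) was called after adjusting for the choroid plexus score. With all libraries, the cohort-by-group interaction had an adjusted p of at least 0.953 in each of the 402 tests of the 67 genes, Kcnip2 included.

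**Figure D3:**
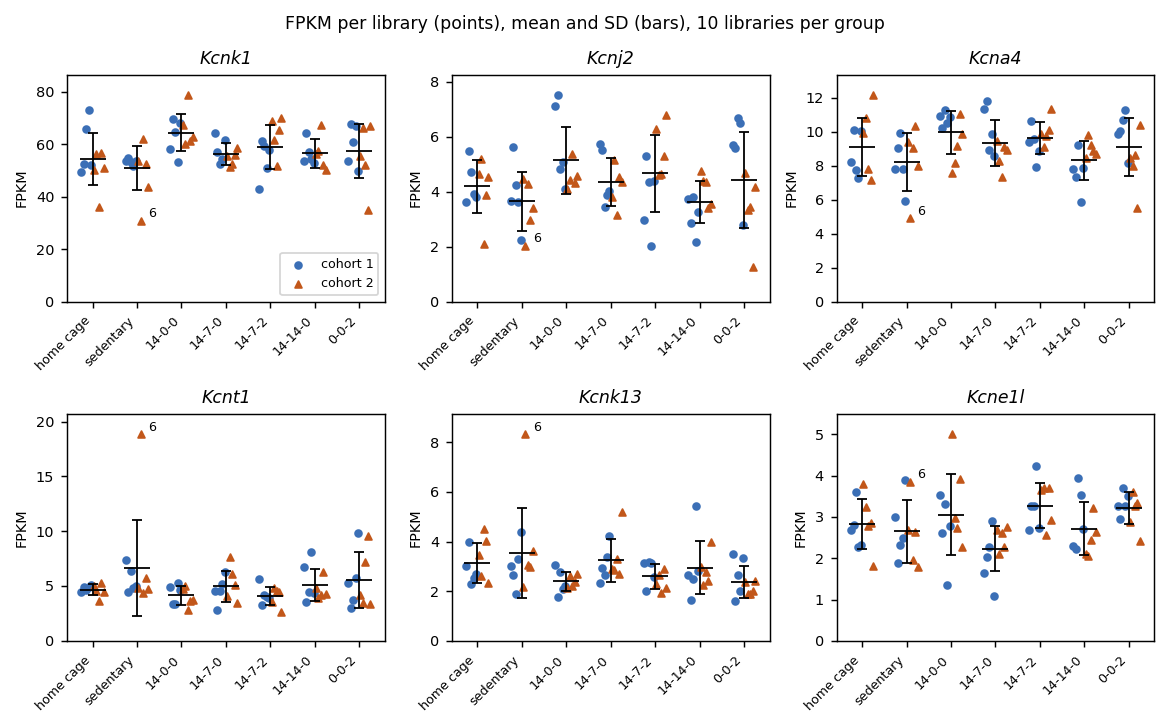
FPKM of 6 channel genes in each library, by group, with points for harvest cohort 1 and triangles for cohort 2, and bars for the mean and SD of 10 libraries; sedentary replicate 6 is marked 6. Kcnt1 and Kcnk13 are highest in that library, at 18.8 and 8.31 FPKM, and Kcnk1 is lowest in it, at 30.6 FPKM.

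After 7 days without a wheel, in 14-7-0, 3 of the 67 genes were called, against 3.26% of all genes tested. Kcnab1 was again higher, at 88.0 FPKM ± 15.7 (SD, n = 10), with a log2 difference of 0.33 (limma p = 0.0117) that was 0.25 without sedentary replicate 6 (limma p = 0.0184). The silent subunit Kcng2 was lower, at 5.85 ± 1.14 FPKM against 7.06 ± 1.01 in sedentary, with a log2 difference of -0.28. The glial rectifier Kcnj16 was lower by a log2 difference of -0.29 (limma p = 0.0423), which was -0.18 without sedentary replicate 6 (limma p = 0.0606) and -0.25 without 14-7-0 replicate 4 (limma p = 0.0779). Kcnj16 was at 9.80 FPKM in sedentary replicate 6, above all the others. Without sedentary replicate 6, 5 genes were called, against 3.29% of all genes tested, now with Kcnc1, Kcng1 and Kcnk4, which were lower in 14-7-0.

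In 14-7-2, where 2 days of reactivating exercise followed the delay, 5 of the 67 genes were called against sedentary, against 4.39% of all genes tested. Kcne1l, an auxiliary subunit gene on chromosome X, ran from 2.56 to 4.23 FPKM (median 3.27) against 1.78 to 3.89 in sedentary (median 2.56). It was above the sedentary median in 9 of 10 libraries. Its log2 difference of 0.33 (limma p = 0.0289) was 0.39 without sedentary replicate 6 (limma p = 0.00749). It was called in neither cohort alone, at 0.27 in cohort 1 (limma p = 0.191) and 0.38 in cohort 2 (limma p = 0.0953). Kcnt1 was lower, at 4.09 FPKM ± 0.836 (SD, n = 10), with a log2 difference of -0.55 (limma p = 0.0147) and of -0.37 without that library (limma p = 0.00677).

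The calls of Kcna4, Kcnf1 and Kcng1 in 14-7-2 were lost when a single library was left out. Kcna4 was higher by 0.26 on the log2 scale, and its limma p of 0.0327 became 0.0567 without sedentary replicate 6 and 0.0582 without 14-7-2 replicate 9. The silent subunit Kcnf1 was lower by a log2 difference of -0.28, and its limma p of 0.0365 became 0.0746 without sedentary replicate 6. Kcng1, another silent subunit, was lower by a log2 difference of -0.31, and its limma p of 0.0491 became 0.101 without 14-7-2 replicate 9. After adjusting for the choroid plexus score neither silent subunit was called, with a limma p of 0.0540 for Kcnf1 and a difference of -0.18 for Kcng1 (limma p = 0.175), and the count was 3, against 3.42% of all genes tested. Kcng1 was also not called in a joint fit of the 7 groups (limma p = 0.0639). Leaving out either library left 3 genes called, against 3.58% of all genes tested without the sedentary library and 3.32% without the other.

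In 14-14-0, 2 of the 67 genes were called, against 4.95% of all genes tested. Kcnf1 was lower, from 7.68 to 13.9 FPKM (median 12.6) against 11.5 to 21.7 in sedentary (median 13.3), and its limma p of 0.0311 became 0.0633 without sedentary replicate 6. Kcnj8, the vascular subunit of ATP-sensitive channels, was higher, at 2.04 ± 0.223 FPKM against 1.75 ± 0.329, by 0.22 on the log2 scale (limma p = 0.0339). The 8 markers of endothelium and pericytes summed to 115 to 152 FPKM in 14-14-0 and to 110 to 142 in sedentary, and their part in the result was not tested. After adjusting for the choroid plexus score neither gene was called, with a limma p of 0.168 for Kcnf1 and 0.197 for Kcnj8, against 1.09% of all genes tested. In a joint fit of the 7 groups Kcnj8 had a limma p of 0.0809. Without sedentary replicate 6 the count was 3, against 6.97% of all genes tested, and Kcns3 and Kcnn1 were called lower, at -0.21 (limma p = 0.00464) and -0.27 (limma p = 0.0362).

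With 2 days of running alone, in 0-0-2, 2 of the 67 genes were called, against 2.37% of all genes tested. Kcne1l was higher, from 2.43 to 3.71 FPKM (median 3.27), with 9 of 10 libraries above the sedentary median and a log2 difference of 0.31 (limma p = 0.0274). Kcnk13 was lower, from 1.61 to 3.50 FPKM (median 2.20), with a log2 difference of -0.48 (limma p = 0.0292) that was -0.33 without sedentary replicate 6 (limma p = 0.0478). Without that library Kcnc1 was called too, and the count was 4, against 2.52% of all genes tested. Without 0-0-2 replicate 8 the count was also 4, against 2.75% of all genes tested, as Kcnk1 and Kcnab1 were also called, higher by 0.25 (limma p = 0.0287) and 0.23 (limma p = 0.0494).

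The home cage comparison, which sets untrained against trained sedentary mice, called 0 of the 67 by limma at an unadjusted p under 0.05, against 2.3% of all genes tested, and also 0 without sedentary replicate 6, against 3.15%. The log2 differences of home cage from sedentary ran from -0.35 to 0.28.

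Leaving out sedentary replicate 6 lowered the number of channel genes with a positive difference in each of the 6 comparisons with sedentary. As these share the sedentary libraries, leaving it out shifted a gene by the same amount in all 6. The 6 counts are thus not independent, and the share of all genes tested with a positive difference is not given. With all 10 sedentary libraries, 44 of the 67 genes had a positive difference in 14-7-2, 45 in 0-0-2, 38 in 14-0-0, 38 in home cage, 37 in 14-7-0 and 31 in 14-14-0. Without replicate 6, the counts were 32, 29, 22, 19, 27 and 10. In 5 of the 6 comparisons most genes thus lay above zero with that library and below zero without it, while in 14-14-0 most lay below zero both ways. The median log2 difference over the 67 was between -0.01 and 0.05 with that library and between -0.10 and -0.00 without it. Over all genes tested, the medians were between -0.01 and 0.01 with it and between -0.02 and -0.00 without it. Kcnc1, a Kv3 channel of fast-spiking neurons, had 31.6 FPKM ± 2.99 (SD, n = 10) in 14-0-0 and 34.4 ± 3.79 in sedentary with replicate 6, or 35.2 ± 3.08 (SD, n = 9) without it. Its log2 difference was below zero both ways, at -0.12 with that library (limma p = 0.0902) and -0.16 without it (limma p = 0.0198).

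**Figure D4:**
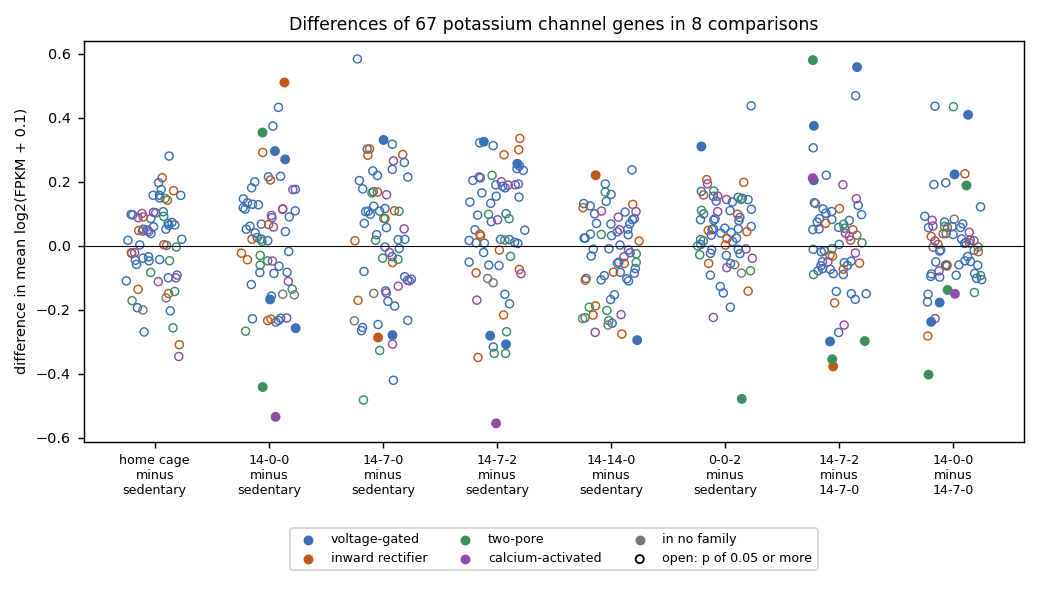
Differences in mean log2(FPKM + 0.1) of the 67 genes in 8 comparisons of 10 against 10 libraries, colored by family; filled points have an unadjusted limma p under 0.05 and open points do not. Filled points number 8 in 14-0-0 minus sedentary and 9 in 14-7-2 minus 14-7-0, and none in home cage minus sedentary.

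To ask what the 2 days of reactivating exercise added after the delay, 14-7-2 was compared with 14-7-0, without the sedentary libraries. Of the 67 genes 9 were called (13.4%), against 5.39% of all genes tested. Higher were Kcne1l, the EAG channel Kcnh1, the silent subunit Kcng2, the mechanosensitive two-pore channel Kcnk4 and the sodium-activated Kcnt2. Lower were the beta subunit Kcnab3, the two-pore channels Kcnk3 and Kcnk13, and Kcnj8. The smallest adjusted p was 0.487, for Kcne1l.

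Kcne1l ran from 1.09 to 2.90 FPKM in 14-7-0 (median 2.28) and from 2.56 to 4.23 in 14-7-2 (median 3.27), and all 10 libraries of 14-7-2 were above the 14-7-0 median. The log2 difference was 0.56 ± 0.14 (SE; limma p = 0.000865), 0.72 in cohort 1 and 0.39 in cohort 2. The lowest value belongs to the shallow 14-7-0 replicate 4, and without that library the difference was 0.46 (limma p = 0.000492). Kcnh1 ran from 10.3 to 13.6 FPKM in 14-7-2 (median 11.2) and from 7.39 in 14-7-0 (median 10.3), and 9 of 10 libraries were above the 14-7-0 median. Its log2 difference of 0.20 (limma p = 0.0107) was 0.17 in cohort 1 and 0.24 in cohort 2.

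Kcng2, which was lower in 14-7-0 than in sedentary, had 7.72 ± 2.07 FPKM in 14-7-2 and 5.85 ± 1.14 in 14-7-0, a log2 difference of 0.37 (limma p = 0.0186). Kcnab3 had 12.4 ± 2.32 FPKM against 15.3 ± 2.85, a log2 difference of -0.30 (limma p = 0.0125). Kcnj8 had 1.65 ± 0.271 FPKM against 2.32 ± 1.19, and the SD of 14-7-0 reflects 5.59 FPKM in its replicate 4. Its log2 difference of -0.38 was -0.23 without that library (limma p = 0.0297). Without 14-7-0 replicate 4, 6 of the 67 were called, against 5.77% of all genes tested. Kcnk3, Kcnk4, Kcnk13 and Kcnt2 were then no longer called, with a limma p of 0.0517, 0.0631, 0.0690 and 0.0765, and Kcnip1 was called lower. Without 14-7-2 replicate 9 the count was 8, against 6.57% of all genes tested, and Kcnk13 and Kcnt2 were not called (limma p = 0.0631 and 0.0751). Nor were they in a joint fit of the 7 groups (limma p = 0.0803 and 0.0567). With the choroid plexus score as a term Kcnk13, Kcnt2 and Kcnj8 had a limma p of 0.0579, 0.0571 and 0.0569, and the count was 6, against 5.19% of all genes tested.

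To ask how the levels right after running differed from those after 7 days of delay, 14-0-0 was compared with 14-7-0. Of the 67 genes 8 were called (11.9%), against 5.63% of all genes tested, and the smallest adjusted p was 0.721. Kcnip2 ran from 83.9 to 113 FPKM in 14-0-0 (median 99.2) and from 98.9 to 132 in 14-7-0 (median 112), and 9 of 10 libraries of 14-0-0 were below the 14-7-0 median. Its log2 difference was -0.24 ± 0.06 (SE; limma p = 0.000602), -0.39 in cohort 1 and -0.09 in cohort 2. Kcnk1 was higher in 14-0-0 than in 14-7-0 by 0.19 on the log2 scale (limma p = 0.00488), at 64.3 FPKM ± 7.05 against 56.3 ± 4.17 (SD, n = 10). Kcnk13 was lower by a log2 difference of -0.40 (limma p = 0.0043), at 2.39 ± 0.378 FPKM against 3.24 ± 0.861.

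Kcnh1 was higher in 14-0-0 by 0.22 on the log2 scale (limma p = 0.0174), at 11.7 FPKM ± 1.79 (SD, n = 10), and by 0.24 without 14-7-0 replicate 4 (limma p = 0.0143). Kcna6, the SK channel Kcnn2 and Kcnk2 were lower, by log2 differences of -0.18, -0.15 and -0.14. Kcne1l was higher by 0.41 (limma p = 0.044), but by 0.31 without 14-7-0 replicate 4 (limma p = 0.0899), which left 7 genes called, against 5.85% of all genes tested. Kcnk1, Kcnk13, Kcnip2 and Kcna6 were thus called in 14-0-0 against both sedentary and 14-7-0, comparisons that share the 14-0-0 libraries. After adjusting for the choroid plexus score 5 genes were called against 14-7-0, among them Kcnk1, Kcnk13, Kcnip2 and Kcne1l, against 2.07% of all genes tested. Kcnh1 then had a difference of 0.10 (limma p = 0.295) and Kcnk2 one of -0.07 (limma p = 0.375), and Kcna6 and Kcnn2 had a limma p of 0.102 and 0.124. In a joint fit of the 7 groups Kcnk1, Kcna6, Kcnk2 and Kcnn2 were not called against 14-7-0, with a limma p of 0.0561, 0.0590, 0.0532 and 0.215.

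Kcnj3, the GIRK1 subunit through which G-protein-coupled receptors slow firing, is 1 of 21 genes that the study chose on these samples, so its direction is not independent evidence. It ran from 39.4 to 58.4 FPKM in 14-0-0 (median 52.5), from 41.1 to 58.3 in 14-7-0 (median 48.8) and from 39.7 to 54.8 in 14-7-2 (median 52.6). In sedentary it ran from 16.3 to 53.0 FPKM (median 45.9), or from 32.2 without replicate 6. The mean was 49.6 FPKM in 14-0-0, 49.8 in 14-7-2 and 49.2 in 14-7-0, so the level was not particular to 14-0-0 and 14-7-2. It was 46.8 FPKM in 0-0-2, 44.1 in 14-14-0, 42.9 in home cage and 42.0 in sedentary, or 44.9 without replicate 6. The log2 differences from sedentary were 0.29 in 14-0-0 (limma p = 0.0867) and 0.30 in 14-7-2 (limma p = 0.0709). They were 0.15 (limma p = 0.130) and 0.16 (limma p = 0.0798) without replicate 6. A fit of all 7 groups together, where the spread is shared, gave the same differences a limma p of 0.0104 and 0.00845, and adjusting for the choroid plexus score gave 0.44 in 14-0-0 (limma p = 0.0414). Its usual partner subunits were Kcnj6 at 26.1 and Kcnj9 at 22.4 FPKM over the 70 libraries, and neither was called in any of the 8 comparisons.

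Between the harvest cohorts, 6 of the 67 genes were called, against 11.9% of all genes tested. Kcng2 had the smallest limma p of these, 0.00102 (adjusted p = 0.0821), at 7.27 FPKM ± 1.11 in cohort 2 and 6.34 ± 1.63 in cohort 1 (SD over 35 libraries each). It was above the cohort 1 median in 32 of 35 libraries of cohort 2. Kcnmb4, Kcnc1 and Kcns1 were also higher in cohort 2, by 0.18, 0.08 and 0.14 on the log2 scale, and Kcnab1 and Kcnip4 were lower, with log2 differences of -0.12 and -0.10. Without sedentary replicate 6 neither of the lower genes was called, with a limma p of 0.0530 for Kcnab1 and 0.0747 for Kcnip4. Without 0-0-2 replicate 8 they had a limma p of 0.0543 and 0.0589, and Kcns1 had one of 0.0672.

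A list of 37 other channel genes was examined as well, of which 36 passed the filter. It held sodium, calcium, chloride and cation channel genes. It also held Dpp6 and Dpp10, which are auxiliary to Kcnd potassium channels, so the list is not confined to other ions. In 14-0-0, 14-7-2, 14-14-0 and 0-0-2 against sedentary, 0 of the 36 were called by limma at an unadjusted p under 0.05. Cacna1g, a T-type calcium channel, was called lower in home cage and in 14-7-0. In 14-7-2 against 14-7-0, the calcium channel Cacna1c and the sodium channel beta subunit Scn4b were called, 1 higher and 1 lower, and in 14-0-0 against 14-7-0 none was. The potassium channel counts in those last comparisons were 9 and 8 of 67. The difference between the lists was not tested.

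The antisense RNAs Kcnmb4os1 and Kcnmb4os2 had means of 13.9 and 7.37 FPKM and were called in none of the comparisons with all libraries. They are named as opposite-strand transcripts of Kcnmb4, and since strand-specific counting is not stated in the sources used here, reads of the overlapping parts cannot be assigned with certainty. Kcnj13 and Kcne2, which were set aside, ran from 0.328 to 87.2 FPKM and from 0.232 to 55.1 FPKM in 14-0-0, against 0.137 to 2.55 and 0.110 to 1.37 in sedentary.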

How the data were processed

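The authors aligned 50 bp single reads with ELAND v2e and Bowtie, kept unique alignments with at most 2 mismatches and deposited FPKM from the Tuxedo protocol. The submitters' processing notes name Bowtie, Cuffnorm and mm10. Versions, and scaling beyond FPKM, are not given in the sources used here. Read counts were not analysed here, so the depth of each value is not known and counting intervals are left out.

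From these values, log2(FPKM + 0.1) was computed for the 12994 genes whose mean reached 1 FPKM. The other 11352 were not tested. Groups, taken from the sample labels, were compared with limma 3.58.1 (R 4.3.3; moderated test, trend, two-sided) on the libraries compared, without covariates. Benjamini-Hochberg adjustment covered 12994 genes. Replicates are separate mice. The study used Cyber-T, which was not run. Cohorts were compared over 70 libraries with group as a term. The test was checked on simulated data. Gene positions and promoters are from RefSeq. Figures were drawn with matplotlib 3.10.9 (Python 3.11.15).

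Genes named are those called in a comparison between groups, the 3 most abundant per family, the 5 furthest on each side in sedentary replicate 6, and Kcnj3. Values of 3 genes are not reported here, although the counts include them. Others were chosen after their values were seen: those of the opening account of levels and variation, and the members called without a library or between cohorts. So were Kcnc2, Kcnj12, Kcnip4, Kcnj9, Kcnk12 and the other channel genes. The members and all lists were chosen with earlier results of these data known. Results were recomputed under 11 alternatives, and under 2 more that leave out a library, chosen after seeing the data. Of 12 marker lists, the choroid plexus, astrocyte, meningeal, microglial, endothelial and inhibitory neuron sums of sedentary replicate 6 lay within the range of the other libraries. Single inhibitory neuron markers lay outside it on both sides.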

Additional observations from a re-analysis of the deposited data

Results flagged for a closer look

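Dixon's test was applied to 252 groups of 10 libraries, 36 named genes in 7 groups, and 31 held a library far from the others. Chance gives about 1 in 20 groups, or 12.6 here, but 10 of the 36 genes were named for their distance in sedentary replicate 6, so this count is not a test of that library. Sedentary replicate 6 gave 10 of the 31. Of these, 7 were among the 10 genes so named and 3 among the other 26. In it Kcnab2 (64.8 FPKM; others 203 to 324), Kcns2 (2.32; 10.2 to 15.2), Kcns3 (0.561; 4.09 to 5.29) and Kcnn2 (5.64; 18.6 to 26.2) were low. Kcnh2 (22.1 FPKM; others 3.15 to 8.51), Kcnip1 (34.0; 7.61 to 10.9), Kcnj16 (9.80; 3.68 to 5.58), Kcnk13 (8.31; 1.88 to 4.37), Kcnn3 (6.28; 1.29 to 2.71) and Kcnt1 (18.8; 4.33 to 7.38) were high.

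In 14-14-0 replicate 3, Kcnip1 (16.1 FPKM), Kcnj16 (6.50) and Kcnn3 (4.42) were above the rest of the group. In 0-0-2 replicate 4, Kcnip1 (21.6 FPKM) and Kcnn3 (5.49) were above and Kcns3 (1.97) below the rest, and in 0-0-2 replicate 8 Kcnf1 (29.9 FPKM) and Kcng1 (19.0) were above. In home cage replicate 7, Kcnk4 (7.91 FPKM) was above and Kcnt1 (3.60) below the other home cage libraries. The shallow 14-7-0 replicate 4 was high in Kcnj8 (5.59 FPKM) and Kcnn2 (28.2).

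Further single values were Kcna6 (20.1 FPKM) and Kcnk4 (8.13) in 14-7-2 replicate 3, Kcnk2 (25.8) in 14-7-2 replicate 5, and Kcnab2 in 14-7-2 replicate 9 (132) and in 14-7-0 replicate 9 (171). Kcnh1 was low in 14-7-0 replicate 3 (7.39 FPKM) and high in 14-14-0 replicate 1 (14.3). In 14-0-0, Kcnh2 was high in replicate 7 (12.3 FPKM) and Kcnj8 in replicate 5 (2.61).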

How the results depend on the processing

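Over the 40 calls of named genes, 413 values were recomputed under the alternatives: 315 kept their direction and their side of p = 0.05, 98 lost the call, and none changed direction. A pseudocount of 1 lost no call, and median ratio scaling and no filter lost 1 each. Within a single cohort, with 5 against 5 libraries, 26 of 37 calls were lost in cohort 1 and 26 in cohort 2. Counts of members called moved by over 1.5 times as follows. With cohort 1 alone they were 1 for home cage, 5 for 14-0-0, 2 for 14-7-2, 1 for 0-0-2, 4 for 14-7-2 against 14-7-0 and 4 for 14-0-0 against 14-7-0, where 1.5%, 7.94%, 1.89%, 1.36%, 4.17% and 3.65% of all genes tested were called. With cohort 2 alone they were 4 for 14-0-0, 0 for 14-7-0, 3 for 14-7-2, 0 for 14-14-0, 1 for 0-0-2 and 3 for 14-0-0 against 14-7-0, where 4.7%, 1.36%, 4.23%, 2.04%, 2.72% and 4.79% of all genes tested were called. The joint fit of 7 groups gave 12 for 14-7-0, 11 for 14-7-2, 1 for 14-14-0 and 4 for 0-0-2, where 6.9%, 8.33%, 5.65% and 3.89% of all genes tested were called. The choroid plexus covariate gave 3 for 14-7-2, 0 for 14-14-0 and 5 for 14-0-0 against 14-7-0. Counts without sedentary replicate 6 were 5 for 14-7-0, 3 for 14-7-2 and 4 for 0-0-2. Leaving out 0-0-2 replicate 8 gave 4 for 0-0-2 and 3 for the cohorts (11.2% of all genes tested), and leaving out 14-7-2 replicate 9 gave 3 for 14-7-2; both were chosen after seeing the data. Members with a cohort-by-group interaction at an unadjusted limma p under 0.05 numbered 3 of 402 tests, or 10 without sedentary replicate 6, and 0 after adjustment. The share over all genes tested is not given for these interactions, so the counts are not read as a result about the members. In the fit with the replicate number as a block, 13 members were called in 14-0-0 (14.5% of all genes tested) and 5 in 14-7-0 (5.07%), and no other count moved by over 1.5 times. The numbers do not pair the libraries by the labels, and in 14-0-0 against sedentary 7 of 10 same-numbered pairs had deviations correlated over 0.1 (range -0.02 to 0.36), with 3 of 10 libraries correlating best with their own number. The cause of these changes was not tested, and neither was the part of the smaller number of libraries in some fits. With unknown depth, genes near 1 FPKM are the least certain, most of all in 14-7-0 replicate 4.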
